A study of Homo sapiens with 36 samples.

Results

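The genes described are 10 lysosomal cathepsins, CTSF, CTSA, CTSB, CTSC, CTSD, CTSH, CTSK, CTSL, CTSS and CTSZ, followed in H1 cells, an established human embryonic stem cell line, on the way to cardiomyocytes. They were matched by symbol, and all 10 were found among the 58721 genes of the deposited tables. CTSF was chosen by its measured counts, which in PERK KO libraries lay far below those of wild type, so that difference is given as a description with no test. The other 9 cathepsins stand beside it as the same class of enzymes.

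RNA was sequenced from 36 libraries, which cover PERK KO and wild-type cells at days 0, 1, 2, 3, 5 and 10 with 3 libraries for each genotype and day. PERK, encoded by EIF2AK3, is a kinase of the endoplasmic reticulum that lowers translation under stress. Both genotypes received the same course of agents: CHIR99021, which activates WNT signalling through inhibition of GSK3, at the start, then IWP2, which blocks WNT secretion, with heparin in the first week and insulin later. The labels do not say how PERK was disrupted, from how many clones the KO cells came, or whether replicates are separate cultures. A difference that belongs to a KO clone and one that follows from the loss of PERK cannot be told apart, which holds for CTSF as for every genotype difference. Every p-value therefore measures only the spread between these samples, which may be technical.

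Libraries held 14.0 to 25.9 M counts (median 18.2 M). EIF2AK3 RNA gave no check of the genotype labels, since it ranged from 11.9 to 22.9 CPM (counts scaled to library size) over the 18 PERK KO libraries and from 10.1 to 28.1 CPM over the 18 wild-type libraries. In pairwise tests of counts, replicate 2 of PERK KO day 0 gave chi-square values per degree of freedom of 151 and 140 with the other libraries of its group, which gave 4.17 with each other. For replicate 3 of wild-type day 2 these values were 76.0 and 71.0, against 4.09, so both libraries stood apart. To a smaller degree, wild-type day 0 replicate 1 also differed from a close pair, with values of 18.1 and 24.0 against 3.7. It was left out singly but not with those 2 libraries. Wild-type day 3 and day 10 libraries also differed, with values of 25.0 to 89.5 and 25.5 to 56.0, but with no close pair to set 1 library apart from. Summed TPM, a length-corrected share of all transcripts, of 8 cardiomyocyte markers were 113 to 405 in PERK KO day 10 libraries and 7232 to 8232 in wild-type day 10 libraries. Summed TPM of 8 pluripotency markers were 1150 to 1181 in PERK KO day 10 libraries and 214 to 269 in wild-type day 10 libraries.

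Cathepsins are proteases that are made as inactive precursors, carried to the lysosome by mannose 6-phosphate receptors and activated there by acid. CTSB, CTSC, CTSF, CTSH, CTSK, CTSL, CTSS and CTSZ are cysteine proteases of the papain family, CTSD is an aspartic protease and CTSA is a serine carboxypeptidase. In heart muscle, as in other tissues, lysosomal proteolysis completes autophagy, and transcription factors of the MiT/TFE family (TFEB, TFE3, MITF) bind CACGTG-containing elements at many lysosomal genes.

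CTSF (ENSG00000174080.10) lies on chromosome 11, from 66563463 to 66568841 on the minus strand of GRCh38, with 9 annotated transcripts and 13 exons in the first of them in GENCODE release 29. No other annotated gene overlaps it. The stretches before the start sites of CTSF, CTSA and CTSD are shown because they are the 3 of 7 members in the RefSeq promoter table (GRCh38.p14) that hold CACGTG, which is written in capitals, and that of CTSL is shown as one without it. Each line gives the 250 bases that end at the start site annotated in RefSeq, 5′ to 3′ on the gene's strand. This start differs from the outer bound of the GENCODE gene. The stretch of CTSF lies largely within its GENCODE span, and those of CTSA, CTSD and CTSL lie wholly within theirs.
CTSF (chr11:66568607-66568856, minus strand): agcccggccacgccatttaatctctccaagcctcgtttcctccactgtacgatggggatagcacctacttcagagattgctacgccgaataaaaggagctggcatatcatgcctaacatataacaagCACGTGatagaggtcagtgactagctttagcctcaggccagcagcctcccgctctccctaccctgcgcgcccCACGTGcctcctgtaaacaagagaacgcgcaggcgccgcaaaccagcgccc
CTSA (chr20:45891085-45891334, plus strand): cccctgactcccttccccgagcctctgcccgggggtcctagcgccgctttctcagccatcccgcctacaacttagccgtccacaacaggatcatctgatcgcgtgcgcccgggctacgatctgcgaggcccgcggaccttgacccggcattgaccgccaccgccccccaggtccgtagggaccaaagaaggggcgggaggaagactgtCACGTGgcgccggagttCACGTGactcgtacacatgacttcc
CTSD (chr11:1763928-1764177, minus strand): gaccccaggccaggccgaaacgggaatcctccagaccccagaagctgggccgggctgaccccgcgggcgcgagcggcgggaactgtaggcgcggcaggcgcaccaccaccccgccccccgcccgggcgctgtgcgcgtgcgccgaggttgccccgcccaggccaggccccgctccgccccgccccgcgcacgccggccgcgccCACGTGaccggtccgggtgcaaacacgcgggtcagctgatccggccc
CTSL (chr9:87725869-87726118, plus strand): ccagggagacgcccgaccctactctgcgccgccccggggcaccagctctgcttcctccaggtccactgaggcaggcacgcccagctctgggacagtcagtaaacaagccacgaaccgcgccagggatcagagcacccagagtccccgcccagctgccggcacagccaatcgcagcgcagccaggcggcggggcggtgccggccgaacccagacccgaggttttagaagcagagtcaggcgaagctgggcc

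The motif CACGTG, which reads the same on both strands, was searched from 250 bases before to 50 bases after each RefSeq start. It stood at positions -123 and -51 from the start of CTSF, at -42 and -25 of CTSA, and at -47 of CTSD. CTSC, CTSH, CTSL and CTSZ had no match in this window, and CTSB, CTSK and CTSS were not matched to the table. Of 35116 promoters of this length, 2548 (7.26%) held the motif at least once and 233 (0.664%) held it at least 2 times. Longer forms of the motif, with added flanking bases, were searched in the same window, and none of them matched CTSF. Among the 7 members in the promoter table they matched only CTSA and CTSD, and the longest form matched no member. A match is a description of these letters and not a bound site.

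CTSF, a papain-family protease with a long, cystatin-like propeptide, had 2, 0 and 2 counts in the 3 PERK KO libraries of day 0, against 237, 234 and 199 counts in the 3 wild-type libraries. Every PERK KO library was below every wild-type library at that day. Over pooled, TMM-scaled counts, CTSF was 165-fold lower in PERK KO (95% exact counting interval 64.1 to 607). The interval covers counting error only, and in bulk RNA fewer cells of a type and less RNA per cell cannot be told apart.

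The difference was present at every later day and its size varied. At day 1, CTSF had 3, 0 and 3 counts in PERK KO libraries and 278, 174 and 161 counts in wild-type libraries (91.6-fold lower, 41.8 to 251). At day 2, the counts were 5, 11 and 6 in PERK KO libraries and 361, 409 and 532 in wild-type libraries (62.4-fold lower, 41.1 to 100). No PERK KO library reached the lowest wild-type library of its day.

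At days 3 and 5 the PERK KO libraries held more CTSF reads. Day 3 gave 49, 42 and 31 counts in PERK KO libraries and 494, 469 and 664 in wild-type libraries (13.8-fold lower, 11.5 to 16.8). Day 5 gave 40, 32 and 39 counts in PERK KO libraries and 524, 563 and 621 in wild-type libraries (15.2-fold lower, 12.5 to 18.5). The gap was narrowest at these 2 days, and the groups still did not overlap.

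At day 10 the PERK KO reads were nearly gone again. CTSF had 0, 1 and 1 counts in PERK KO libraries and 701, 556 and 830 counts in wild-type libraries. The pooled ratio was 1168-fold lower in PERK KO, with an interval of 323 to 9647 that is wide because it rests on 2 reads. Leaving out any 1 library kept the ratio of PERK KO to wild type between 0.000624 and 0.00124 at day 10, and between 0.0649 and 0.0854 at day 3.

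**Figure D1:**
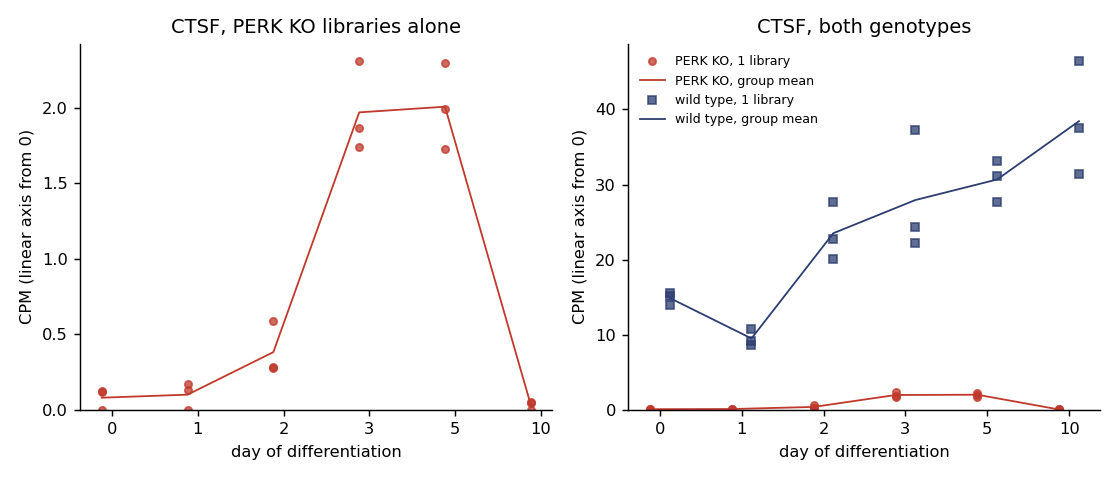
CTSF level in CPM by day, with the 3 PERK KO libraries of each day alone on their own linear axis (left) and with both genotypes on one axis (right). Points are libraries and lines join group means; PERK KO means lie between 0.0316 and 2.01 CPM, below the wild-type means of 9.50 to 38.4 CPM at every day.

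The change of CTSF over days within PERK KO cells was also fitted. Its baseline is PERK KO day 0, whose low counts were among the values that chose CTSF. The p-values of this paragraph are therefore not independent of that choice and are given as a description. CTSF averaged 1.97 ± 0.299 CPM at PERK KO day 3 and 0.0801 ± 0.0695 CPM at PERK KO day 0 (SD, n = 3 each), a pooled ratio of 21.9 (8.33 to 81.6). The log2 fold change was 4.36 ± 0.47 (SE) with an adjusted p of 1.21e-08, and 4.38 ± 0.48 at day 5 with an adjusted p of 8.53e-09 (edgeR's quasi-likelihood F test, Benjamini-Hochberg over 19772 genes). At day 2 the log2 fold change was 1.99 ± 0.63 (edgeR adjusted p = 0.0123), but without PERK KO day 2 replicate 2 it was 1.56 with an edgeR adjusted p of 0.0939, and without the 2 libraries that stood apart it was 1.62 with an edgeR adjusted p of 0.0593. At day 10 the PERK KO libraries held 2 reads in all, against 4 at PERK KO day 0, a ratio of 0.359 with an interval of 0.0325 to 2.50.

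In wild-type cells, whose day 0 libraries also entered the choice of CTSF so that the same limit holds, CTSF followed another course. It averaged 9.50 ± 1.16 CPM at day 1 and 14.9 ± 0.857 CPM at day 0 (SD, n = 3 each), a fall of -0.65 ± 0.21 on the log2 scale (edgeR adjusted p = 0.0141), which without wild-type day 1 replicate 3 was -0.57 (edgeR adjusted p = 0.063). It was then higher than at day 0 at each later day, by 0.66, 0.90, 1.04 and 1.37 log2 units at days 2, 3, 5 and 10. The edgeR adjusted p at day 10 was 1.25e-06, and its mean there was 38.4 ± 7.53 CPM.

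The reads left in PERK KO libraries at day 3 came with an estimated mean CTSF transcript length close to that of wild type. RSEM, which weighs transcripts by their estimated abundance, gave 1987, 2022 and 2004 nt in PERK KO day 3 libraries, against 1920, 1905 and 2019 nt in wild-type day 3 libraries. At day 5 it gave 2000, 1431 and 1976 nt in PERK KO libraries, against 1796, 1839 and 1926 nt in wild-type libraries, so 1 PERK KO library was shorter than the rest. Earlier days had few PERK KO reads and more varied lengths. Day 2 gave 1245, 1192 and 1993 nt in PERK KO libraries on 5, 11 and 6 counts, against 1869, 1982 and 1873 nt in wild-type libraries. PERK KO day 1 replicates 1 and 3 gave 702 and 1856 nt on 3 counts each.

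Of 34 annotated genes within 250 kb of CTSF, 23 passed the count filter. Their share called between genotypes at days 0, 1, 2, 3, 5 and 10 was 21.7%, 30.4%, 39.1%, 34.8%, 65.2% and 73.9%, where 21.1%, 15.8%, 42.6%, 45.1%, 59.0% and 67.3% of all genes tested were called. At day 5, 3 of the 23 were higher and 12 lower in PERK KO (median -0.49), and at day 10, 4 were higher and 13 lower (median -0.84). The nearest tested genes on the side of lower coordinates were ACTN3, an actin-binding protein of muscle that ends 134 bp from CTSF, and ZDHHC24, a palmitoyltransferase family member. ACTN3 averaged 21.8 ± 3.25 CPM in PERK KO day 0 libraries and 32.3 ± 0.279 CPM in wild-type day 0 libraries (SD, n = 3 each), and its fitted log2 differences at days 0, 1, 2, 3, 5 and 10 were -0.56, 1.99, 0.88, 0.22, -0.80 and -1.16.

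ZDHHC24, CCDC87 and CCS, the copper chaperone of superoxide dismutase, had fitted differences between -1.09 and 0.74 over the days. RBM14 and SLC29A2, a nucleoside transporter, were the 2 genes called at all 6 days, each with a direction that changed between days. The gene with the widest fitted values in the window was AP002748.4, named after its values were seen, from -6.43 to 7.16. It overlaps BBS1 on the same strand and was called at day 5 alone.

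**Figure D2:**
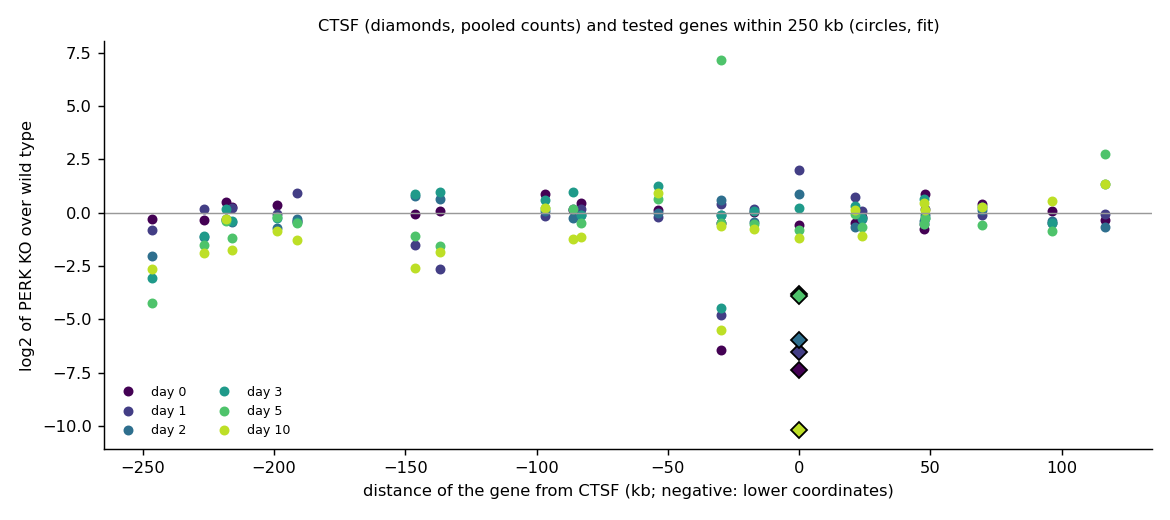
Log2 of PERK KO over wild type for CTSF (diamonds at distance 0, pooled counts) and for the 23 tested genes within 250 kb (circles, edgeR), against distance from CTSF in kb and coloured by day. CTSF lies low at all 6 days, most at day 10; the neighbours have medians of 0.02 at day 0 and -0.84 at day 10, and the circles beyond 5 in either direction are AP002748.4.

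By a rule of likeness, the 5 genes whose log2 CPM followed CTSF most closely over all 36 libraries were C9orf64 (Pearson r = 0.877), WBP2 (0.877), LY6E (0.873), LRRC61 (0.873) and CMTM7 (0.872). C9orf64 ranged from 0 to 0.270 CPM in PERK KO libraries and from 0.807 to 3.29 CPM in wild-type libraries, without overlap. Over the 18 wild-type libraries alone the closest were IFI27L2 (0.981), AGAP3 (0.978), SUN2 (0.977), TBC1D25 (0.977) and FOXP4 (0.975). These values are descriptions over libraries that share days and genotypes.

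CTSS, a cysteine protease known from antigen-presenting cells, did not pass the count filter. It had 8 counts over the 18 PERK KO libraries, of which 11 were at 0, and 27 counts over the 18 wild-type libraries, of which 5 were at 0. Wild-type day 0 replicate 2 alone held 10 of these counts, and no other library of either genotype held more than 2. The leukocyte marker PTPRC was at 0 in all PERK KO libraries of days 1, 2, 3, 5 and 10, and in all wild-type libraries of days 0, 1, 2, 3 and 5. A summed list of 10 macrophage and blood markers was 65.8 to 70.8 TPM in PERK KO day 10 libraries and 47.1 to 53.3 TPM in wild-type day 10 libraries.

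Per transcript length, CTSC and CTSD were the most abundant members in PERK KO cells at day 0. CTSC, which activates granule serine proteases by trimming their N-termini, averaged 186 ± 34.3 TPM in PERK KO and 172 ± 9.16 TPM in wild type (SD, n = 3 each). CTSD, the main aspartic protease of lysosomes, averaged 127 ± 9.10 TPM in PERK KO and 216 ± 9.46 TPM in wild type. In the count fit CTSD was at -0.31 at day 0, with overlapping libraries, and was not called (edgeR adjusted p = 0.253). On the TPM scale the median of all genes was also lower in PERK KO at day 0 (-0.16 log2 units). PERK KO day 0 replicate 2 had a mean counted transcript length of 2028 nt, against 2838 and 2783 nt in its group. CTSH, CTSZ, CTSL, CTSB and CTSA lay between 20.3 and 30.8 TPM in PERK KO and between 19.8 and 31.4 TPM in wild type, where several neighbours in the order overlapped.

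By day 10 the order of levels had changed and differed between genotypes. In PERK KO libraries CTSC was highest at 102 ± 7.83 TPM, followed by CTSD at 89.7 ± 0.949 TPM and CTSB at 72.7 ± 1.20 TPM, with no overlap between these 3. In wild-type libraries CTSD was highest at 223 ± 35.5 TPM, and CTSB (146 ± 14.5 TPM) and CTSL (135 ± 7.35 TPM) followed with overlapping values. Summed over the 10 members, the level at day 10 was 404 ± 4.99 TPM in PERK KO and 760 ± 45.1 TPM in wild type, and at day 0 it was 438 ± 46.0 TPM in PERK KO and 535 ± 9.99 TPM in wild type. The sum was higher in PERK KO at day 2 (596 ± 9.18 against 541 ± 26.6 TPM) and day 3 (685 ± 31.15 against 542 ± 30.5 TPM), without overlap. It overlapped between PERK KO and wild type at day 1 (623 and 612 TPM) and day 5 (615 and 639 TPM). The day 0 sums are on the same TPM scale, so the limit given for CTSD at day 0 holds for them.

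Of the 8 tested members other than CTSF, the number called between PERK KO and wild type was 2 at day 0 (CTSC and CTSL higher), where 21.1% of all 19772 genes were called, and 1 at day 1 (CTSC lower; 15.8% of all genes). At days 2, 3 and 5 it was 6 each time, where 42.6%, 45.1% and 59.0% of all genes were called. By day 10 all 8 were called, 2 higher and 6 lower, where 67.3% of all genes were called, 33.3% higher and 34.0% lower. The median log2 difference of the 8 was -1.09 at day 10, against 0.00 over all genes. The genotype difference changed with day for all 8 (edgeR interaction test, adjusted p from 1.93e-15 for CTSC to 0.00237 for CTSK), as it did for 80.9% of all genes.

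CTSC had the largest positive difference among the members. At day 5 it had 223, 230 and 241 CPM in PERK KO libraries, against 40.4, 49.0 and 54.1 CPM in wild-type libraries. The groups were far apart, and the log2 fold change was 2.27 ± 0.11 (SE; edgeR adjusted p = 1.61e-17). It was 1.28 at day 2 (edgeR adjusted p = 1.09e-11), 1.93 at day 3 (6.05e-16) and 0.56 at day 10 (1.98e-05).

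The earlier CTSC differences were small. At day 0 it was 0.44 ± 0.10 (edgeR adjusted p = 0.00192), but 0.45 with an edgeR adjusted p of 0.149 when only the 6 libraries compared were fitted, and 0.09 (0.669) on the TPM scale with limma. At day 1 CTSC was lower in PERK KO by -0.31 ± 0.10 (edgeR adjusted p = 0.0347), and this was lost without any 1 of the 6 libraries, with values from -0.27 to -0.34 and adjusted p from 0.0507 to 0.153.

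Within wild type CTSC fell to 47.8 ± 6.93 CPM at day 5, against 214 ± 6.50 CPM at day 0, a log2 fold change of -2.16 ± 0.11 (edgeR adjusted p = 3.37e-17). Within PERK KO it averaged 232 ± 9.32 CPM at day 5 and 291 ± 32.6 CPM at day 0, and the difference of -0.33 (edgeR adjusted p = 0.00783) was -0.22 (0.0616) without PERK KO day 0 replicate 2 and 0.08 on the TPM scale. By day 10 CTSC had also fallen in PERK KO, to 115 ± 10.5 CPM, a log2 fold change of -1.34 ± 0.10 from day 0 (edgeR adjusted p = 2.45e-12).

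**Figure D3:**
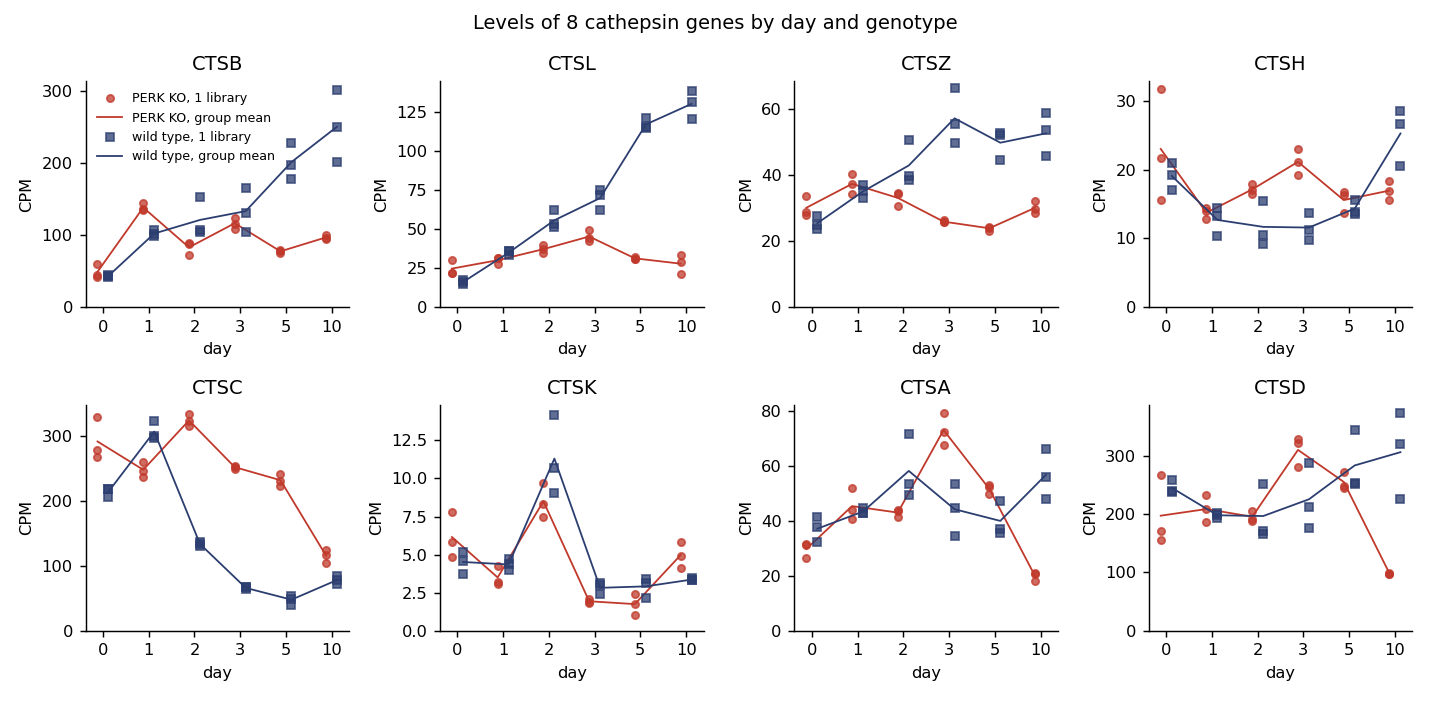
CPM of the 8 tested members other than CTSF by day; points are libraries (PERK KO circles, wild type squares), lines join group means, and each panel has its own linear axis from 0. CTSL and CTSB climb in wild type to 130 and 251 CPM at day 10, while PERK KO means are 27.8 and 96.9 CPM there, and CTSC stays at 232 CPM in PERK KO at day 5 where wild type averages 47.8 CPM.

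CTSL and CTSB, broad endopeptidases of the lysosome, showed the reverse pattern. CTSL had 33.03, 21.3 and 29.01 CPM in PERK KO day 10 libraries, against 121, 131 and 138 CPM in wild-type day 10 libraries. The groups were separated by more than the spread of either, with a log2 fold change of -2.23 ± 0.14 (SE; edgeR adjusted p = 1.43e-14). CTSB had 100.5, 95.9 and 94.3 CPM in PERK KO day 10 libraries, against 201, 250 and 301 CPM in wild-type day 10 libraries, a log2 fold change of -1.37 ± 0.16 (edgeR adjusted p = 1.06e-08).

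Both were already lower in PERK KO at day 5, CTSL by -1.91 ± 0.14 (edgeR adjusted p = 4.2e-13) and CTSB by -1.38 ± 0.16 (1.17e-08). At day 3 CTSL was lower by -0.63 (edgeR adjusted p = 0.000251), while CTSB was at -0.19 with overlapping libraries and was not called (0.337), and at day 1 CTSB was at 0.44 and not called (0.0574). At day 2 both were called lower (CTSL -0.58, edgeR adjusted p = 0.00076; CTSB -0.55, 0.00594), and without wild-type day 2 replicate 3 CTSB was at -0.34 (0.0758). CTSL was higher in PERK KO at day 0 by 0.62 ± 0.14 (edgeR adjusted p = 0.00165), which on the TPM scale with limma was 0.17 (0.292) and with only the 6 libraries compared was 0.63 (0.113).

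In wild type CTSL reached 130 ± 9.03 CPM at day 10, against 16.0 ± 1.18 CPM at day 0 (log2 fold change 3.03 ± 0.15, edgeR adjusted p = 1.55e-17). CTSB reached 251 ± 49.9 CPM at day 10, against 43.3 ± 1.76 CPM at day 0 (2.53 ± 0.17, 2.65e-14). In PERK KO CTSB was also higher at day 10 than at day 0 (96.9 ± 3.20 against 49.0 ± 9.09 CPM; 0.99 ± 0.16, edgeR adjusted p = 4.49e-06). For CTSL the PERK KO day 10 level was 27.8 ± 5.96 CPM, against 24.6 ± 4.77 CPM at day 0, a difference of 0.18 ± 0.14 that did not pass (edgeR adjusted p = 0.264).

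Over the 6 days the highest group mean of CTSL was 1.83 times the lowest in PERK KO and 8.15 times in wild type. For CTSB this ratio was 2.82 in PERK KO and 5.79 in wild type. Marker lists of other cells also differed at day 10, in both directions. Neural markers summed to 739 to 828 TPM in PERK KO day 10 libraries and 155 to 181 TPM in wild-type day 10 libraries. At day 10 fibroblast and stromal markers summed to 58.5 to 98.8 TPM in PERK KO and 883 to 1232 TPM in wild type, and endoderm and liver markers to 676 to 1181 TPM in PERK KO and 3050 to 3903 TPM in wild type (8 genes a list). Their part in the cathepsin differences was not tested, nor was that of the cardiomyocyte and pluripotency lists given earlier.

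CTSZ, a carboxypeptidase also known as cathepsin X, had 25.6, 25.7 and 26.2 CPM in PERK KO day 3 libraries, against 49.6, 55.4 and 66.2 CPM in wild-type day 3 libraries. The groups did not overlap, and the log2 fold change was -1.14 ± 0.13 (SE; edgeR adjusted p = 5.69e-09). It was -1.06 at day 5 (edgeR adjusted p = 2.06e-08) and -0.81 at day 10 (1.79e-06). At day 2 it was -0.38 (0.016), and without wild-type day 2 replicate 3 it was -0.24 (0.136) and without PERK KO day 2 replicate 1 -0.32 (0.0824).

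CTSA, which protects beta-galactosidase and neuraminidase in the lysosome, and CTSD changed direction between days 3 and 10. At day 3 CTSA had 67.3, 72.3 and 79.0 CPM in PERK KO libraries, against 34.6, 44.5 and 53.4 CPM in wild-type libraries (log2 fold change 0.72 ± 0.15, edgeR adjusted p = 0.000233). At day 10 it had 20.6, 17.98 and 21.1 CPM in PERK KO libraries, against 48.0, 55.8 and 66.2 CPM in wild-type libraries (-1.51 ± 0.16, edgeR adjusted p = 1.18e-09). The groups did not overlap at either day.

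CTSD had 97.8, 99.5 and 97.3 CPM in PERK KO day 10 libraries, against 225, 319 and 373 CPM in wild-type day 10 libraries. The wild-type libraries were spread, and all were above the PERK KO libraries (log2 fold change -1.64 ± 0.19, edgeR adjusted p = 1.3e-08). At day 3 CTSD was 310 ± 25.8 CPM in PERK KO and 225 ± 57.0 CPM in wild type (0.46 ± 0.19, edgeR adjusted p = 0.0467). This call was lost without wild-type day 3 replicate 1 (0.31) or 2 (0.42) and without PERK KO day 3 replicate 2 (0.44) or 3 (0.42), with edgeR adjusted p from 0.109 to 0.229. Fractional counts occurred for CTSA in 34 libraries and for CTSD in 35, and both genes overlap other annotated genes, so their values are uncertain to that extent.

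At days 2 and 5 CTSA was called with smaller differences, -0.44 (edgeR adjusted p = 0.0222) and 0.37 (0.0395). Without wild-type day 2 replicate 3 the day 2 value was -0.26 (0.206), and without PERK KO day 2 replicate 2 it was -0.41 (0.0682). The day 5 call was lost without wild-type day 5 replicate 2 or 3 and without any of the 3 PERK KO libraries of day 5, with values from 0.29 to 0.40 and edgeR adjusted p from 0.0561 to 0.155.

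CTSH, an aminopeptidase, had its highest genotype difference at day 3, with 19.3 to 23.0 CPM in PERK KO and 9.81 to 13.7 CPM in wild type (log2 fold change 0.87 ± 0.20, edgeR adjusted p = 0.000452). It was 0.55 at day 2 (0.0234) and -0.57 at day 10 (0.01). The day 2 call was lost without wild-type day 2 replicate 1 (0.40) or 2 (0.48) or PERK KO day 2 replicate 2 (0.51), and the day 10 call without wild-type day 10 replicate 2 (-0.48, edgeR adjusted p = 0.0533). CTSK, a collagenolytic protease of osteoclasts, was low throughout, from 1.03 to 9.72 CPM in PERK KO libraries and from 2.15 to 14.2 CPM in wild-type libraries.

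CTSK was called lower in PERK KO at day 5 (-0.74, edgeR adjusted p = 0.0125) and higher at day 10 (0.56, 0.0315). Both calls were lost when any 1 of several libraries was left out. The first was -0.61 (0.0625) without wild-type day 5 replicate 2 and -0.48 (0.115) without PERK KO day 5 replicate 1. The second ranged from 0.43 to 0.56, with edgeR adjusted p from 0.0598 to 0.14, without wild-type day 10 replicate 1 or 2 or PERK KO day 10 replicate 1 or 2.

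**Figure D4:**
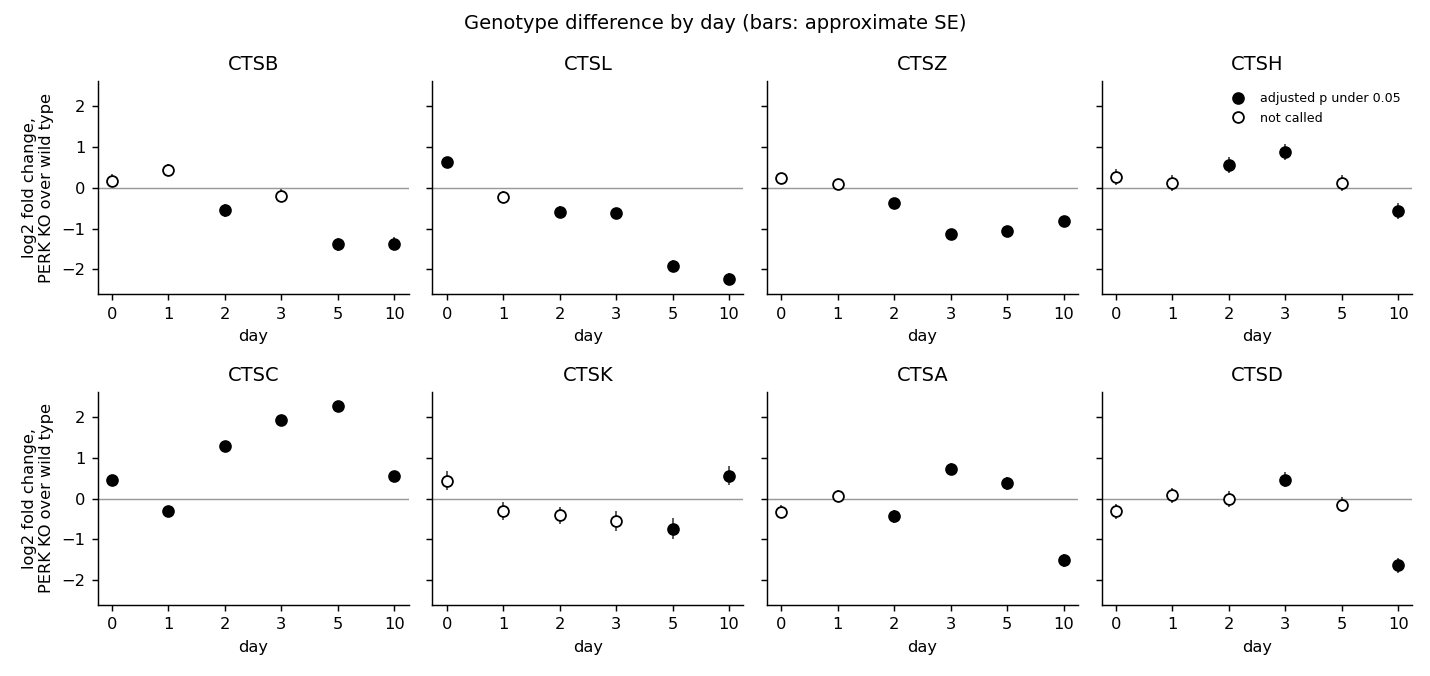
Log2 fold change of PERK KO over wild type by day for the 8 tested members other than CTSF, with approximate SE; filled points have an edgeR adjusted p under 0.05 over 19772 genes. CTSC is above 0 at 5 of 6 days and highest at day 5 (2.27), CTSL falls to -2.23 at day 10, and CTSA and CTSD lie above 0 at day 3 and below it at day 10.

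Within genotypes, the members called against day 0 numbered 6, 8, 7, 6 and 6 of the 9 tested at the 5 later days in wild type, where 44.6%, 50.5%, 56.8%, 61.9% and 69.2% of all genes were called. In PERK KO they numbered 5, 4, 6, 8 and 4, where 43.1%, 41.4%, 40.3%, 48.8% and 61.8% of all genes were called. At wild-type day 10, CTSF, CTSA, CTSB, CTSL and CTSZ were higher and CTSC lower than at day 0, where 34.9% of all genes were higher and 34.3% lower. At PERK KO day 10, CTSB was higher and CTSA, CTSC and CTSD were lower, although on the TPM scale CTSA was 0.15 higher (limma adjusted p = 0.359) against -0.58 ± 0.16 in the count fit (edgeR adjusted p = 0.00215). These contrasts share their day 0 libraries within a genotype, and the counts of 9 include CTSF, to which the limit given above applies.

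PERK KO day 3 was the day at which CTSA and CTSD peaked in that genotype. CTSA averaged 72.9 ± 5.89 CPM at PERK KO day 3 and 29.7 ± 2.89 CPM at PERK KO day 0 (log2 fold change 1.30 ± 0.16, edgeR adjusted p = 8.13e-08). CTSD averaged 310 ± 25.8 CPM at day 3 and 197 ± 60.3 CPM at day 0 (0.65 ± 0.19, 0.00639), and with only the 6 libraries compared its edgeR adjusted p was 0.0812. CTSK was lower than at day 0 in PERK KO at days 3 and 5, by -1.65 ± 0.24 (2.03e-06) and -1.79 ± 0.24 (5.38e-07). In wild type it was also lower at these days, by -0.68 (0.0154) and -0.62 (0.0233), calls lost without wild-type day 3 replicate 2 (0.0748) and day 5 replicate 1 (0.119). Its highest mean was at day 2 in both genotypes, 8.50 CPM in PERK KO and 11.3 CPM in wild type. That rise over day 0 was called in wild type (1.32 ± 0.22, 1.05e-05) but not in PERK KO (0.48 ± 0.22, 0.0807).

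Among the cathepsins outside the 10, CTSE, an aspartic protease of gastric and blood cells, had 9 counts over PERK KO day 10 libraries and 2369 over wild-type day 10 libraries, 294-fold lower in PERK KO (95% counting interval 155 to 645). It had no count at wild-type day 0. Set against a floor of 3 counts summed over the 3 day 0 libraries, it was 644-fold higher at wild-type day 10. The 95% exact counting interval of this ratio, from the counts themselves, starts lower, at 524. CTSV, a close relative of CTSL, was at 28.3 ± 4.68 CPM in PERK KO and 73.2 ± 10.8 CPM in wild type at day 10 (log2 fold change -1.37 ± 0.14, edgeR adjusted p = 5.51e-10). CTSO was higher in PERK KO at day 10 (0.85 ± 0.25, 0.00436), CTSG had no count in PERK KO or wild type at day 10, and CTSW was too low to be tested.

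Other genes of the lysosome were counted on lists, beside the members. At day 10 the share of all genes called was 67.3% between genotypes (33.3% higher and 34.0% lower in PERK KO) and 69.2% within wild type against day 0 (34.9% higher and 34.3% lower). Of 34 other lysosomal hydrolases tested, 4 were higher and 26 lower in PERK KO at day 10 (median log2 difference -1.21, against 0.00 over all genes), and 26 were higher and 4 lower in wild type at day 10 than at day 0 (median 0.96). NEU1, the neuraminidase that CTSA protects, averaged 34.8 ± 1.24 CPM in PERK KO and 206 ± 48.0 CPM in wild type at day 10 (-2.57 ± 0.19, edgeR adjusted p = 7.95e-13). ACP5, an acid phosphatase, was higher in PERK KO (4.10 ± 0.33, edgeR adjusted p = 3.98e-12).

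The next 3 lists had shares called near the 67.3% of all genes. Of 16 lysosomal membrane proteins tested, 3 were higher and 8 lower in PERK KO at day 10, with NPC1, the cholesterol exporter, at -1.23 ± 0.15 (edgeR adjusted p = 3.73e-08). Of 17 subunits and accessory proteins of the V-ATPase, the proton pump that acidifies lysosomes, 1 was higher and 10 were lower, with ATP6AP1 at -1.77 ± 0.15 (2.19e-11). Among 12 genes of mannose 6-phosphate tagging and sorting 3 were higher and 5 lower (median 0.06); GNPTAB, which starts the tag, was higher (1.86 ± 0.33, 1.43e-05), and GGA2, a sorting adaptor, was lower (-0.98 ± 0.14, 3.7e-07).

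Cathepsin inhibitors split at day 10, 2 higher and 4 lower in PERK KO of 6 tested (all genes: 33.3% higher and 34.0% lower). CST3, cystatin C, averaged 34.4 ± 6.10 CPM in PERK KO and 248 ± 55.9 CPM in wild type at day 10 (-2.85 ± 0.27, edgeR adjusted p = 1.36e-10). SERPINB6 averaged 8.99 ± 1.79 CPM in PERK KO and 108 ± 17.2 CPM in wild type (-3.58 ± 0.20, 1.4e-15), and LXN, latexin, was higher in PERK KO (1.66 ± 0.29, 8.68e-06).

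Of 17 MiT/TFE factors and their regulators tested, 1 was higher and 11 lower in PERK KO at day 10, with a median of -0.91 (all genes: 33.3% higher and 34.0% lower, median 0.00). TFEB averaged 0.976 ± 0.152 CPM in PERK KO and 54.7 ± 11.7 CPM in wild type (-5.80 ± 0.38, edgeR adjusted p = 3.72e-14). MITF averaged 1.97 ± 0.895 CPM in PERK KO and 67.8 ± 24.5 CPM in wild type (-5.10 ± 0.38, 1.03e-12). RRAGD, a GTPase that controls these factors at the lysosome, was lower (-2.46 ± 0.15, 7.99e-15). Within wild type, 11 of the 17 were called higher at day 10 than at day 0 (34.9% of all genes were higher), with TFEB at 5.76 ± 0.39 (edgeR adjusted p = 3.98e-14).

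**Figure D5:**
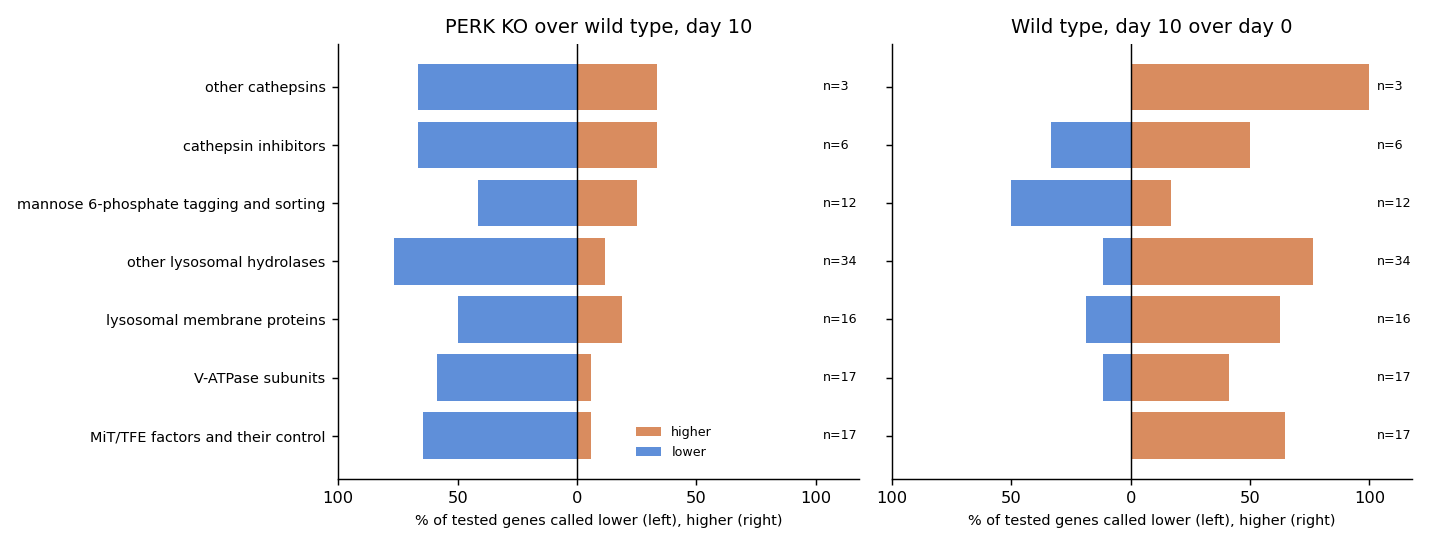
Share of the tested genes of each list called higher (right) or lower (left) by edgeR, for PERK KO over wild type at day 10 (left panel) and for wild type at day 10 over day 0 (right panel); n is the number tested, and both panels share the wild-type day 10 libraries. Other hydrolases stand at 4 higher and 26 lower of 34 in the left panel and at 26 higher and 4 lower in the right panel, where 67.3% and 69.2% of all genes were called.

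The lists were counted in the same way at earlier days. Other hydrolases were 5 higher and 7 lower in PERK KO at day 0 (21.1% of all genes called), 7 higher and 14 lower at day 3 (45.1%), and 7 higher and 19 lower at day 5 (59.0%), with medians of 0.03, -0.15 and -0.59. V-ATPase genes were 9 higher and 1 lower of 17 at day 3 (median 0.53, with 45.1% of all genes called). At that day CTSA, CTSC, CTSD and CTSH were called higher in PERK KO, and CTSL and CTSZ were called lower. The mannose 6-phosphate list was 8 higher and 1 lower of 12 at the same day (median 0.67).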

How the data were processed

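Poly(A) RNA of 36 libraries was measured by paired-end sequencing, per the labels' protocols, and groups were taken from the sample titles. The authors used CASAVA, FastQC, STAR and RSEM on GRCh38 (hg38), per the submitters' processing notes, with no version given in them. The deposited sample tables hold the RSEM expected count, the TPM and the transcript length of 58721 genes, per the file headers, and all gene identifiers matched GENCODE release 29. The deposited table of the whole series holds the same expected counts (largest difference 0). The design text names days 0, 2 and 6, and the labelled days were used.

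Expected counts were rounded to whole numbers, filtered with filterByExpr (minimum count 10; 19772 genes kept, with 9 of the 10 members), and scaled with TMM. The quasi-likelihood F test of edgeR 4.0.16, under R 4.3.3 and limma 3.58.1, was run on 12 groups with 24 residual degrees of freedom (coefficient of biological variation 18.7%). Calls were made where the Benjamini-Hochberg adjusted p over all genes tested was under 0.05. An approximate SE was taken as the log2 difference over the root of F. CTSF between genotypes, and genes with few counts, are given as ratios of pooled counts over TMM-scaled library sizes with 95% exact (Clopper-Pearson) counting intervals. Levels between genes are compared in TPM. Library totals ran from 14.0 to 25.9 M counts, and a total of 3 counts was the floor for a group at 0. Promoter sequences are RefSeq's, build GRCh38.p14.

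The members, the gene lists and the rules for naming genes were chosen with earlier results of these data known. Genes could be named if they were members, were among the 4 of a list with the smallest p in either day 10 contrast, were the 2 nearest tested genes on each side of CTSF or called at all 6 days, or were among the 5 most like CTSF (log2 CPM with a prior count of 0.5, genes averaging at least 1 CPM). Alternatives were RLE scaling, no filter, a stricter filter, a replicate block, the whole-series table, leaving out the 2 libraries that stood apart, fits of only the 6 libraries compared, limma on log2(TPM + 1), DESeq2 1.42.0 and leaving out each library. Tables and figures used Python 3.11.15, pandas 2.3.3, numpy 2.4.6, scipy 1.17.1 and matplotlib 3.10.9.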

Additional observations from a re-analysis of the deposited data

Results flagged for a closer look

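The difference between PERK KO and wild type changed with day for each of the 8 tested members other than CTSF, by edgeR's test of the genotype-by-day interaction with 5 degrees of freedom, which compares the genotype difference across the 6 days. The adjusted p was 5.13e-09 for CTSA, 1e-08 for CTSB and 1.93e-15 for CTSC. It was 1.31e-06 for CTSD, 0.000783 for CTSH and 0.00237 for CTSK. It was 2.44e-13 for CTSL and 2.15e-08 for CTSZ. The same test called 80.9% of all genes, so being called is not particular to the cathepsins. CTSA and CTSD were higher in PERK KO at day 3 (log2 differences of 0.72 and 0.46) and lower at day 10 (-1.51 and -1.64), CTSK was lower at day 5 (-0.74) and higher at day 10 (0.56), and CTSL was higher at day 0 (0.62) and lower at day 10 (-2.23). Some of these calls were lost under an alternative. CTSD at day 3 was not called without any 1 of 4 libraries, with the smallest value, 0.31 (edgeR adjusted p = 0.229), without wild-type day 3 replicate 1. CTSK at day 5 was not called without wild-type replicate 2 (-0.61, edgeR adjusted p = 0.0625) or PERK KO replicate 1 (-0.48, 0.115) of that day. CTSK at day 10 was not called without any 1 of 4 libraries, with the smallest value, 0.43 (edgeR adjusted p = 0.14), without PERK KO day 10 replicate 2. CTSL at day 0 was 0.63 (edgeR adjusted p = 0.113) in the fit of the 6 libraries compared and 0.17 (0.292) on the TPM scale with limma, and was not called in either.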

How the results depend on the processing

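Counts of called members other than CTSF between genotypes moved by over 1.5 times in these cases. At day 0 (2 called) there was 1 without a filter and 0 with only the 6 libraries compared. At day 1 (1 called) there were 0 without a filter, and 2 with a stricter filter, without the 2 libraries that stood apart, with only the 6 libraries compared and with DESeq2. Leaving out each library in turn gave 2 to 3 for day 0, 0 in all 6 fits for day 1, 3 to 6 for day 2 (3 without wild-type day 2 replicate 3), 5 to 6 for day 3, 4 to 6 for day 5 and 6 to 8 for day 10. For PERK KO against its day 0, day 1 (5 called) had 2 with only the 6 libraries compared, day 2 (4 called) had 7 on the TPM scale, and day 5 (8 called) had 5 without a filter and 4 with only the 6 libraries, and 5 to 7 on leaving out each library (5 without PERK KO day 5 replicate 1). The interaction called 8 of 8 under every alternative run.

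Same-numbered libraries did not deviate together in most pairs: the correlation of deviations ran from -0.27 to 0.60 and was over 0.1 in 9 of 48 pairs. At day 3 between genotypes it was 0.60 for replicate 1 and 0.54 for replicate 3, but -0.02 for replicate 2. In PERK KO day 5 against day 0 it ran from 0.08 to 0.17. No contrast had all 3 pairs above 0.1, so the numbers were not used to pair samples. This rule is strict, since a library close to its group mean can correlate with none, so pairing at day 3 is not excluded. With a replicate block in all libraries, day 1 between genotypes had 2 calls. With the block and only the 6 libraries compared, the genotype calls numbered 0 (day 0), 2 (day 1) and 2 (day 2), and those of PERK KO against its day 0 numbered 1 (day 1), 1 (day 2) and 4 (day 5).

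Of 97 single member calls, RLE scaling, the whole-series table, DESeq2 and the block in all libraries kept 97, the stricter filter 96, the fit without the 2 libraries that stood apart 91 and no filter 84. The fit of only the 6 libraries kept 75 of 88 and, with the block, 68 of 88. Limma on log2(TPM + 1) kept 87, lost 7 and reversed 3, which were CTSC (0.081 against -0.33) and CTSZ (0.16 against -0.33) at PERK KO day 5 against day 0, and CTSA (0.15 against -0.58) at PERK KO day 10 against day 0. TPM moved the median of all genes by up to 0.38 log2 units and RLE by up to 0.045; the cause of the lost calls was not tested. Total counts in place of TMM scaling for the CTSF ratio, chosen after seeing the data, moved it by less than its counting interval. CTSF in PERK KO rests on 0 to 49 counts a library, which limits the precision of its ratios.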
